A study of Dicentrarchus labrax with 23 samples.

Results

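Thymidylate synthase and DNA topoisomerase 2-alpha are enzymes of DNA synthesis and cell division, and their expression was described along the intestine of European sea bass (*Dicentrarchus labrax*) from the 2 array probes that carry these names (CUST_L3_82996 for thymidylate synthase and CUST_L2_62140 for the topoisomerase), out of 14147 probes on the array. Both were picked by name from the study's list of genes that differed between segments on these same arrays, so a difference between AI-MI and PI was a condition of that list and is no independent evidence. The study hybridised RNA from anterior (AI, 8 arrays), middle (MI, 7 arrays) and posterior (PI, 8 arrays) intestine to a custom one-colour Agilent array. No treatment is named, and all segments came from fish of Mediterranean origin that were reared on a commercial diet and fasted overnight, with RNA of 1 individual on each array. The AI pieces bordered on the pyloric caeca, the PI pieces held the rectum, and the MI pieces came from in between. Whole segments were used, so a segment with fewer cells of a kind and a segment with less RNA per cell cannot be told apart. The labels do not say which arrays came from the same fish. The AI-MI group may therefore hold an AI and an MI array of the same fish, counted as separate samples. The p-values measure the spread between these samples, and those of the main fits ignore any pairing.

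Thymidylate synthase makes dTMP, the DNA-specific nucleotide, by methylating dUMP. The methyl group comes from methylenetetrahydrofolate, which is oxidised to dihydrofolate in the reaction, and dihydrofolate reductase returns it to the folate pool that serine and the glycine cleavage system load with one-carbon units. DNA topoisomerase 2-alpha cuts and reseals both strands of DNA to untangle sister chromatids, and in mammals it is made mainly by dividing cells, whereas its sister enzyme topoisomerase 2-beta is also made by resting ones. The lining of the gut is renewed throughout life by dividing cells at the base of the folds, and lymphocytes in the gut wall divide as well.

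All 23 arrays were usable, with 82.3 to 92.8% of spots well above background per array. Signals are given on the log2 scale with the 75th percentile of the array set to 0. The enterocyte markers (villin-1, sucrase-isomaltase, cadherin-related family members 2 and 5, keratin 8) were all well above background on every array (5 of 5 probes). Both members were well above background on all 23 arrays, and neither spot was left out on any.

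Thymidylate synthase had a moderate signal in AI-MI, at a median percentile of 65.3 on its array, and one close to the detection limit in PI. In AI its log2 signal had a lowest value of -2.72, a median of -0.62 and a highest value of 0.22 over 8 arrays. The 7 MI arrays lay between -2.497 and -0.74 with a median of -1.15. In the 8 PI arrays it lay between -6.93 and -5.70 with a median of -6.44. Hence, all AI and MI arrays were above all PI arrays, a separation in this direction that 4.03% of the 12894 tested probes shared. Before scaling, the spot read 97.5 to 751 intensity units in AI, 101 to 299 in MI and 5.64 to 21.1 in PI. Set against the lowest signal called well above background on the same array, the readings were 17.9 to 154 times that limit in AI, 10.6 to 62.9 times in MI and 1.13 to 3.98 times in PI.

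The means were -1.06 ± 0.85 in AI-MI (SD, n = 15) and -6.31 ± 0.49 in PI (SD, n = 8). The difference of 5.26 (SE 0.31) is a fold-change of 38.2 (95% interval 24.4 to 59.7; limma, Benjamini-Hochberg adjusted p = 1.8e-12). This call was 1 among many, as the comparison called 44.1% of the tested probes, 21.5% with the higher signal in AI-MI and 22.6% with the higher signal in PI, although 99.1% of probes had a smaller absolute difference. AI alone exceeded PI by 5.58 (SE 0.34, adjusted p = 1.8e-09), in a comparison that called 42.1% of probes, 20.7% in this direction. MI alone exceeded PI by 4.89 (SE 0.27, adjusted p = 1.4e-09), where 35% of probes were called and 16.3% in this direction. Among arrays with equal replicate numbers, AI exceeded PI by 2.99 to 6.89 in 8 pairs and MI exceeded PI by 4.43 to 5.82 in 7. The direction in these pairs was fixed by the lack of overlap and adds no support. The 3 slides gave similar values when fitted one by one, at 4.80, 5.63 and 5.24 for AI-MI minus PI. With normexp background correction, whose offset draws dim signals together, the difference was 2.82 with an adjusted p of 2.6e-09.

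DNA topoisomerase 2-alpha had the opposite and much smaller pattern, with the higher signal in PI. Its log2 signal had a lowest value of -3.76, a median of -3.21 and a highest value of -2.82 in AI. In MI the values ran between -3.81 and -2.86 with a median of -3.40. The PI values ran between -2.86 and -2.23 with a median of -2.70. The MI and PI arrays did not overlap, but only just, with the highest MI value at -2.858 and the lowest PI value at -2.856. Of the AI arrays, 7 of 8 lay below every PI array, and AI replicate 7 lay among them. In intensity units the spot read 47.6 to 94.4 in AI, 34.1 to 92.5 in MI and 80.2 to 219 in PI, in each case at least 5.67 times the limit of its array.

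**Figure D1:**
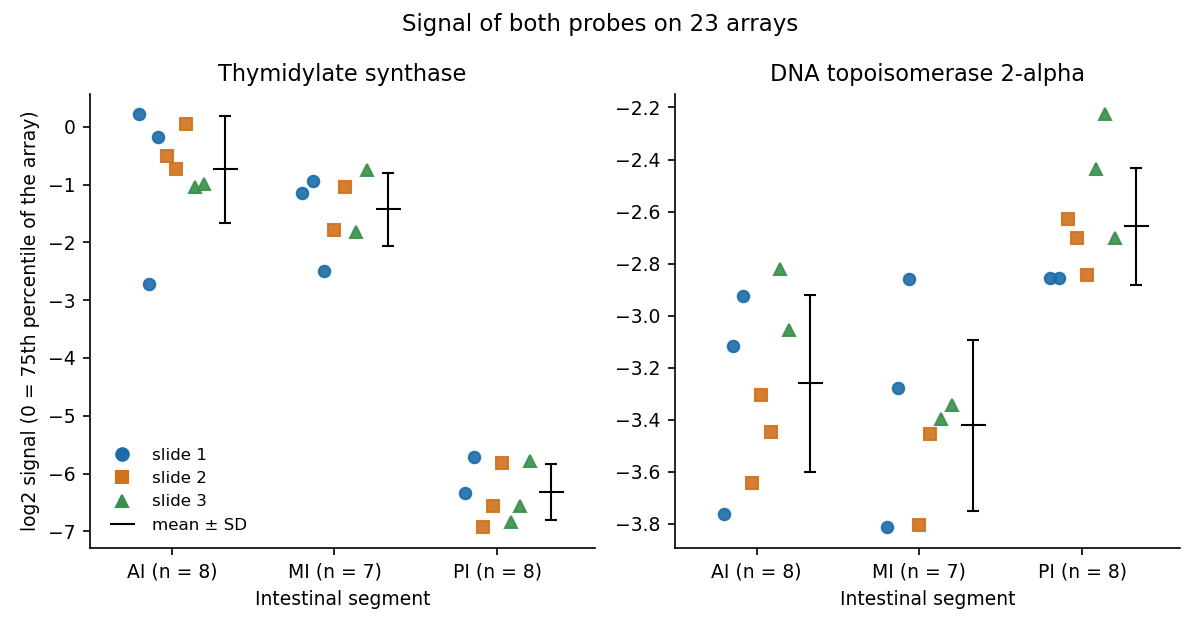
Log2 signal (75th percentile of the array = 0) of thymidylate synthase and DNA topoisomerase 2-alpha on each array, by segment, with slides as symbols and the mean ± SD beside the points; the vertical scales of the panels differ. Thymidylate synthase lies between -2.72 and 0.22 in AI, between -2.497 and -0.74 in MI, and at or below -5.70 in PI, while the topoisomerase spans only -3.81 to -2.23 and is highest in PI.

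The topoisomerase averaged -3.34 ± 0.33 in AI-MI (SD, n = 15) and -2.66 ± 0.22 in PI (SD, n = 8). The difference of -0.68 (SE 0.13, adjusted p = 0.000204 with limma) is a fold-change of 1.60 in favour of PI, and 74.5% of probes had a smaller absolute difference. Among the 3534 tested probes of the study's list the smallest absolute difference was 0.56, so the topoisomerase lay near the lower end of that list. AI minus PI was -0.60 (SE 0.15, adjusted p = 0.00316), with 21.3% of probes called higher in PI. MI minus PI was -0.77 (SE 0.15, adjusted p = 0.000733), with 18.8% of probes called higher in PI and 6.14% separated without overlap in that direction. Between arrays with equal replicate numbers, PI was the higher one in 8 of 8 pairs with AI and in 7 of 7 pairs with MI. The order in the pairs with MI was fixed by the lack of overlap. In the pairs with AI, only AI replicate 7 could have given another order.

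The topoisomerase values also differed between slides. The PI mean was -2.86 on slide 1 (n = 2), -2.72 on slide 2 (n = 3) and -2.45 on slide 3 (n = 3), the slide scanned on another day. The AI-MI mean was -3.29 (n = 6), -3.53 (n = 5) and -3.15 (n = 4) on the same slides. Within slides, AI-MI minus PI was -0.44 on slide 1 (adjusted p = 0.389), -0.81 on slide 2 (adjusted p = 0.00530) and -0.70 on slide 3 (adjusted p = 0.0567), so the direction held on each slide and the call on slide 2 alone. With the slide as a block it was -0.66 (adjusted p = 0.000155). After normexp correction the difference was -0.24 (adjusted p = 0.0305), and MI minus PI no longer passed (-0.22, adjusted p = 0.124).

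**Figure D2:**
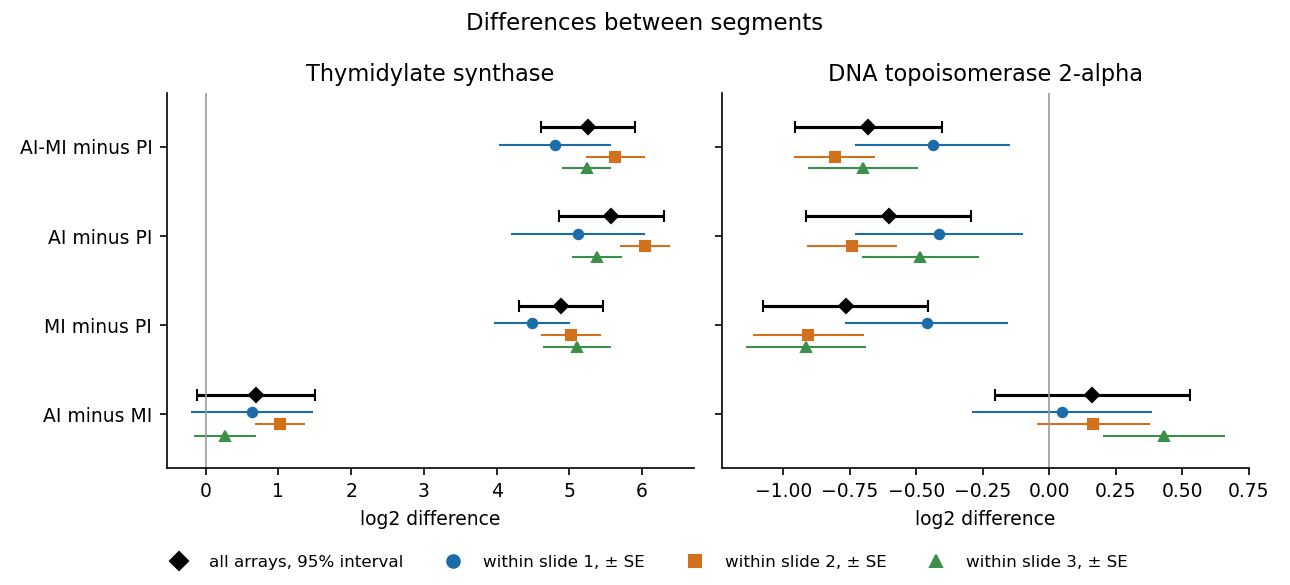
Log2 differences between segments for both genes, from all arrays with their 95% interval (diamonds) and within each slide ± SE; the horizontal scales of the panels differ. All differences from PI are positive for thymidylate synthase and negative for DNA topoisomerase 2-alpha, and the intervals of AI minus MI include 0 for both.

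AI and MI could not be separated for either gene. Thymidylate synthase averaged -0.74 ± 0.92 in AI (SD, n = 8) and -1.43 ± 0.63 in MI (SD, n = 7), a difference of 0.69 (SE 0.38, limma adjusted p = 0.478). Its 95% interval, 0.917 to 2.84-fold, includes equality as well as a higher level in AI. The topoisomerase averaged -3.26 ± 0.34 in AI and -3.42 ± 0.33 in MI, a difference of 0.16 (SE 0.17, limma adjusted p = 0.743), with an interval of 0.867 to 1.44-fold. In this comparison limma called 0 of 12894 probes, 0%, while 1638 probes (12.7%) had an unadjusted p under 0.05 and the methods' own test also had 1605 there. The order of the levels was therefore AI and MI, not told apart, then PI for thymidylate synthase, and PI, then AI and MI, not told apart, for the topoisomerase.

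A single array weighed on the AI values of thymidylate synthase. AI replicate 2 had -2.72, whereas the other 7 AI arrays lay between -1.05 and 0.22 and averaged -0.45 ± 0.50 (SD). Without it, AI minus MI was 0.97 with a limma adjusted p of 0.0631, and 588 of the 12894 probes were then called between AI and MI. The lowest MI value, -2.497, was that of MI replicate 3, with the other 6 MI arrays between -1.83 and -0.74. MI replicate 3 also had the lowest share of spots well above background of all arrays, 82.3%. Its detection limit was the highest, at 9.59 intensity units against a median of 5.05. Signals of other cell types also stood apart on these 2 arrays. On AI replicate 2, 4 of 4 smooth muscle markers and 4 of 5 T cell markers had their highest value among AI arrays, against 18.6% of all probes. The 11 pancreatic acinar probes of that array had a median of 5.07 above the median of the other AI arrays, although none of them was highest there. On MI replicate 3, 8 of 9 B cell markers and 4 of 5 T cell markers had their highest value among MI arrays, against 15% of all probes, and 3 of 3 erythrocyte markers had their lowest, with a median of -1.59 from the other MI arrays. The topoisomerase was not low on either array and had -3.12 on AI replicate 2 and -2.86, its highest MI value, on MI replicate 3. The part of these cells in the values was not tested.

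The genes around thymidylate synthase in the pathway did not share a single direction. The study's list names 15 further probes of thymidylate and folate metabolism. All of them passed the test, 10 on the AI-MI side and 5 on the PI side, with a median difference of 1.11. Names exist only for genes in the study's list, of which 3533 of 3534 tested probes passed here. Of the 3534, 1612 (45.6%) went towards AI-MI and 1921 (54.4%) towards PI, so such counts show directions and not an excess. The smallest absolute difference among them was 0.56, so the median of a named list cannot be set against that of all probes tested.

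Higher in AI-MI were all 3 named parts of the mitochondrial glycine cleavage system, which breaks glycine down and passes a carbon to tetrahydrofolate. Glycine dehydrogenase, its decarboxylating enzyme, averaged -1.28 ± 1.70 in AI-MI (SD, n = 15) and -7.66 ± 0.49 in PI (SD, n = 8), where it was well above background on only 2 of 8 arrays (adjusted p = 3.8e-09). With each PI array raised to the lowest signal called well above background on it, the gene was at least 53.1-fold higher in AI-MI, a log2 difference of at least 5.73 where the measured signals gave 6.38. The H protein, which carries the intermediate, differed by 3.80 (SE 0.33, adjusted p = 1.3e-09), and aminomethyltransferase, which hands the carbon to folate, by 1.88 (SE 0.28, adjusted p = 7.5e-06). Folate transporter 1, a membrane carrier of folates, averaged 2.87 ± 0.46 in AI-MI and -1.40 ± 0.64 in PI (difference 4.27, SE 0.22, adjusted p = 1.3e-13). The probe annotated as viral dihydrofolate reductase averaged 3.43 ± 0.48 in AI-MI and -0.50 ± 0.82 in PI, and mitochondrial serine hydroxymethyltransferase, which also feeds the folate pool, differed by 1.52.

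Higher in PI were 5 probes of the same pathway. Dihydrofolate reductase, the enzyme that regenerates tetrahydrofolate after the synthase has acted, averaged 0.04 ± 1.08 in AI-MI (SD, n = 15) and 3.32 ± 0.42 in PI, where 7 of 8 arrays gave a value (difference -3.28, SE 0.41, adjusted p = 6.1e-07). Cytosolic serine hydroxymethyltransferase averaged 0.22 ± 0.66 in AI-MI and 2.29 ± 0.39 in PI (difference -2.07, SE 0.25, adjusted p = 2.5e-07). Deoxycytidylate deaminase, which makes dUMP from dCMP, differed by -0.99 (SE 0.13, adjusted p = 1.4e-06). The dUTPase probes, for the enzyme that makes dUMP from dUTP, differed by -0.95 and -0.93. The 3 probes for enzymes that supply dUMP were therefore higher in PI, where thymidylate synthase itself was near the limit, while the 2 probes annotated as dihydrofolate reductase went opposite ways (-3.28, and 3.94 with an adjusted p of 9.5e-12 for the one annotated as viral). All 15 probes kept their direction and their call after quantile normalization and normexp correction.

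**Figure D3:**
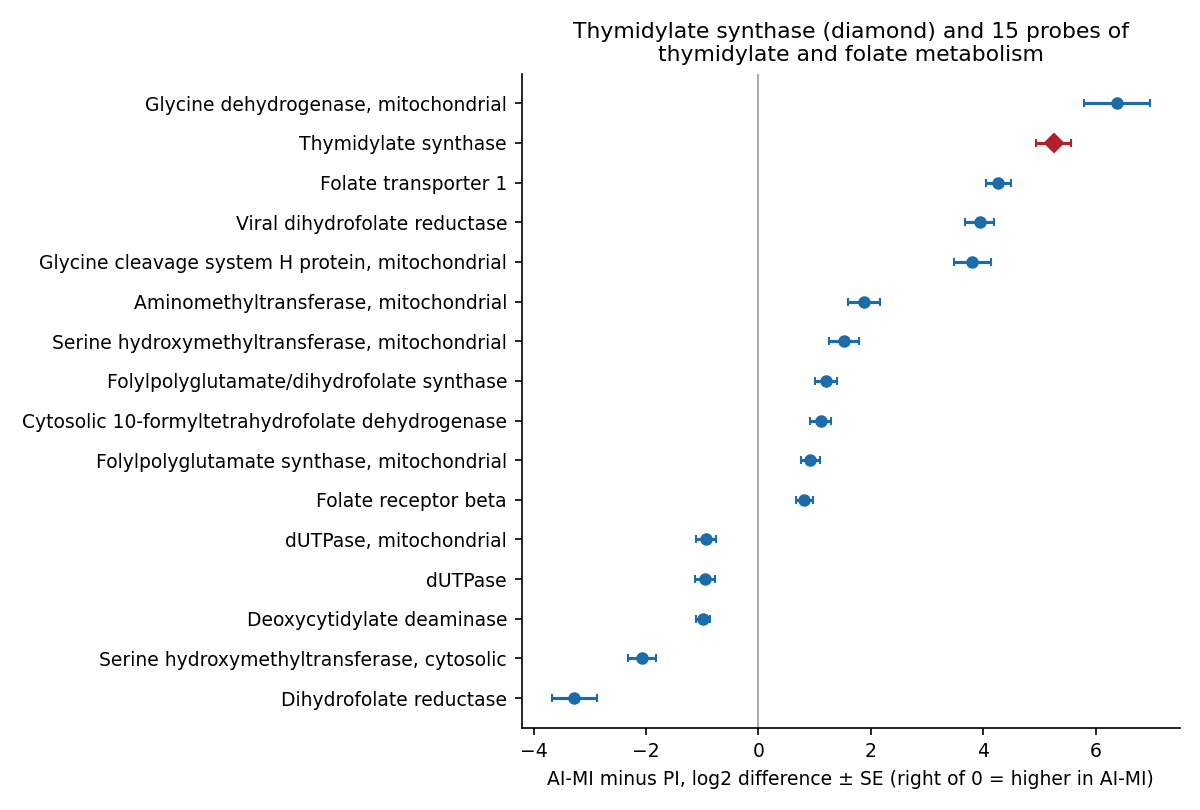
AI-MI minus PI log2 difference ± SE for thymidylate synthase (diamond) and the 15 named probes of thymidylate and folate metabolism; 0 marks equality. Thymidylate synthase (5.26) lies among the glycine cleavage and folate transport probes, while dihydrofolate reductase (-3.28), cytosolic serine hydroxymethyltransferase (-2.07), deoxycytidylate deaminase and the dUTPases lie on the PI side. The position of glycine dehydrogenase (6.38) rests on PI signals of which 2 of 8 were well above background.

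Within segments, the arrays that were low for thymidylate synthase tended to be low for the glycine cleavage genes too. After removing the segment means, the correlation with thymidylate synthase over the 23 arrays was 0.85 for aminomethyltransferase, 0.74 for the H protein, 0.72 for glycine dehydrogenase and 0.70 for mitochondrial serine hydroxymethyltransferase. It was 0.20 for dihydrofolate reductase and -0.36 for cytosolic serine hydroxymethyltransferase. These are descriptions across arrays that share slides. AI replicate 2 held the lowest AI value for 8 of the 15 probes, against 17.7% of all probes, and MI replicate 3 held the lowest MI value for 8 of the 14 with a value on every MI array, against 19.6%. Low values on these 2 arrays were not particular to this pathway. On AI replicate 2 the share was 39.1% for other nucleotide metabolism, 37.5% for replication and 47.1% for mitosis and the cell cycle. On MI replicate 3 the same lists had 34.8%, 31.2% and 35.3%.

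Topoisomerase 2-beta followed the alpha form. Its probe averaged -4.61 ± 0.39 in AI-MI (SD, n = 15) and -3.90 ± 0.15 in PI (SD, n = 8), a difference of -0.71 (SE 0.15, adjusted p = 0.000307). A second probe, annotated as topoisomerase 2-beta-like, differed by -0.59 (SE 0.14, adjusted p = 0.0015). Neither probe separated the groups without overlap. After normexp correction, which moved the median difference of all probes to 0.13, neither passed the test, with -0.10 (adjusted p = 0.459) and 0.05 (adjusted p = 0.681), so the direction of the second one turned.

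Genes of DNA replication and its checkpoint went both ways, with 9 of 16 tested probes on the AI-MI side and 7 on the PI side (median difference 0.73). All named probes tested were likewise divided, 45.6% towards AI-MI and 54.4% towards PI. Geminin, which holds back the licensing of replication origins after S phase has begun, averaged -2.69 ± 0.58 in AI-MI and 0.36 ± 0.35 in PI (difference -3.05, SE 0.22, adjusted p = 5.4e-11). Origin recognition complex subunit 2, which marks the origins, differed by -1.65 (SE 0.30, adjusted p = 8.5e-05, well above background on 12 of 15 AI-MI arrays), and DNA polymerase delta subunit 3 by -1.25 (SE 0.38, adjusted p = 0.0097). DNA polymerase theta, a repair polymerase, was higher in AI-MI by 2.27 (SE 0.15, adjusted p = 1.6e-11). The probe annotated as cell cycle checkpoint control protein RAD9A-like was higher there by 1.22 (SE 0.22, adjusted p = 7.9e-05). RAD9, HUS1, RAD1-interacting nuclear orphan protein 1 was higher there by 1.16 (SE 0.26, adjusted p = 0.000730). Nuclear autoantigenic sperm protein, a histone chaperone, was well above background on 10 of 15 AI-MI arrays and 1 of 8 PI arrays (adjusted p = 4.5e-05 on the measured signals). It was 1.28-fold higher in AI-MI when each PI array was raised to its limit. This is not a lower bound, as AI-MI signals that were not well above background were left as measured. Histone-binding protein N1/N2 went the other way (-1.17, adjusted p = 0.0136), well above background on 5 of 15 AI-MI and 7 of 8 PI arrays. After normexp correction it differed by 0.18 (adjusted p = 0.334). With that correction 9 probes of this list passed on the AI-MI side and 4 on the PI side, and origin recognition complex subunit 2 did not pass (-0.18, adjusted p = 0.290).

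Genes of mitosis and the cell cycle were also divided, with 8 of 17 tested probes on the AI-MI side and 9 on the PI side. This is near the split of all named probes tested, 45.6% and 54.4%. Their differences were small, between -1.23 and 1.84, with a median of -0.60. Cyclin-F, which directs the breakdown of cell cycle proteins, differed by -1.23 (SE 0.19, adjusted p = 8.3e-06). A probe annotated as like a centrosomal protein differed by -1.03 (SE 0.21, adjusted p = 0.000258). Spindle and centriole-associated protein 1 differed by -1.17 (SE 0.22, adjusted p = 0.000129), with 9 of 15 AI-MI arrays well above background, and by 0.04 (adjusted p = 0.775) after normexp correction. M-phase inducer phosphatase 2, an activator of cyclin-dependent kinases, was higher in AI-MI by 1.84 (SE 0.39, adjusted p = 0.000484), and DSN1, part of the outer kinetochore, by 1.38 (SE 0.15, adjusted p = 6.2e-08). The probe annotated as KIF20B-like was higher in AI-MI by 0.79 (SE 0.24, adjusted p = 0.00836). Centromere-associated protein E was higher there by 0.75 (SE 0.27, adjusted p = 0.0264), well above background on 14 of 15 AI-MI arrays. Kinases that restrain entry into mitosis went both ways, with Wee1-like protein kinase 1-B at -0.93 and Wee1-like protein kinase 2 at 0.69. With normexp correction these counts were 8 for AI-MI and 5 for PI, and Wee1-like protein kinase 1-B did not pass (-0.26, adjusted p = 0.0619).

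Other probes of nucleotide metabolism numbered 23 tested, 11 on the AI-MI side and 12 on the PI side (median difference -0.61). Of all named probes tested, 45.6% and 54.4% lay on these sides. The probe annotated as nucleoside diphosphate kinase, which makes nucleoside triphosphates, averaged -3.08 ± 0.53 in AI-MI and 0.35 ± 0.29 in PI (difference -3.43, SE 0.20, adjusted p = 9.7e-13). The other probes of this enzyme family were divided. Kinase 3 differed by -0.69 (adjusted p = 0.000161), while kinases B and 7 were higher in AI-MI by 1.37 (adjusted p = 2.6e-06) and 0.90 (adjusted p = 0.000198). Purine nucleoside phosphorylase, a salvage enzyme, differed by -5.23 (SE 1.06, adjusted p = 0.000294), with AI-MI arrays spread between -6.88 and 1.87 and 11 of 15 of them well above background. Adenylosuccinate synthetase isozyme 1 C differed by -2.42 (SE 0.37, adjusted p = 9.7e-06) and mitochondrial deoxyguanosine kinase by -1.05 (SE 0.16, adjusted p = 8.2e-06). Dihydropyrimidine dehydrogenase, which degrades uracil and thymine, was higher in AI-MI by 2.18 (SE 0.22, adjusted p = 1.5e-08). Uridine phosphorylase 2 was higher in AI-MI by 1.65 (SE 0.52, adjusted p = 0.0120), while uridine phosphorylase 1 was higher in PI (-0.68, adjusted p = 0.0127). Sodium/nucleoside cotransporters 1 and 2, which take nucleosides up, were higher in AI-MI by 1.78 (SE 0.22, adjusted p = 6.3e-07) and 1.73 (SE 0.18, adjusted p = 1.9e-08). A probe annotated as sodium/nucleoside cotransporter without a number went the other way (-0.82, adjusted p = 0.0102). It was well above background on 12 of 15 AI-MI arrays and differed by 0.10 (adjusted p = 0.496) after normexp correction.

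**Figure D4:**
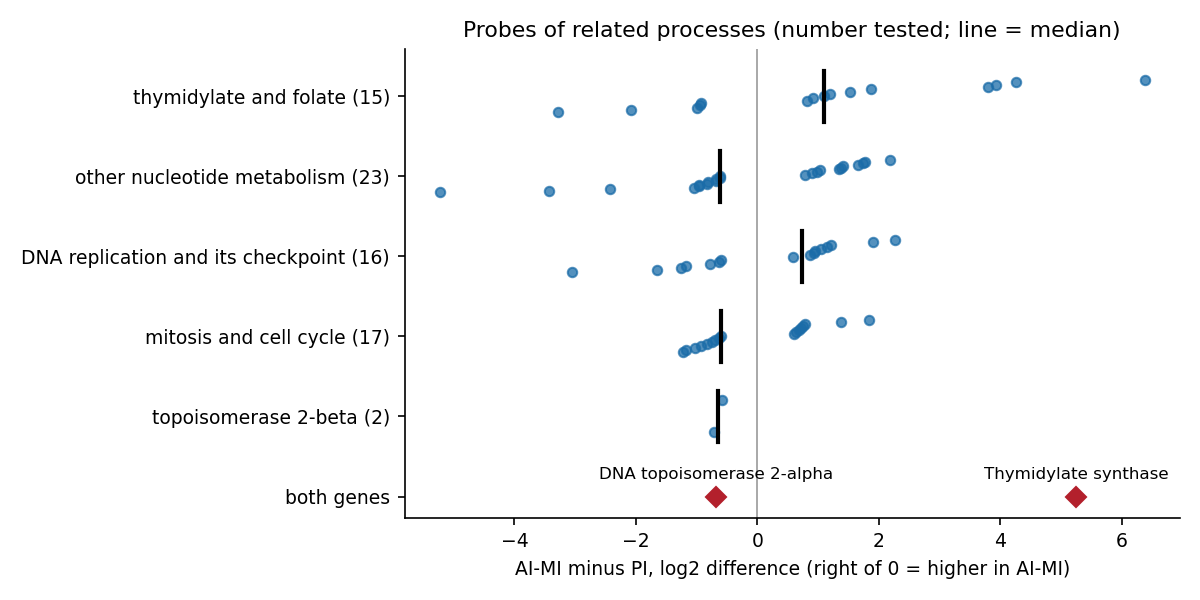
AI-MI minus PI log2 difference of each tested probe in 5 gene lists (points, with the median as a vertical line) and of thymidylate synthase and DNA topoisomerase 2-alpha (diamonds). In the 4 larger lists probes lie on both sides of 0, between -5.23 and 6.38 (glycine dehydrogenase, well above background on 2 of 8 PI arrays), and thymidylate synthase at 5.26 lies farther out than any probe of the replication and mitosis lists.

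Markers of other cell types were also looked up in the study's list, where 3533 of 3534 tested probes passed, 1612 towards AI-MI and 1921 towards PI. A difference was therefore a condition of being named, and markers that did not differ could not appear. Only the directions are described. The 9 B cell, 5 T cell and 4 smooth muscle probes were all higher in PI, with median differences of -2.25, -1.16 and -1.36, although 2 of the B cell probes did not pass after normexp correction. The summed signal of the B cell markers, in units of the 75th percentile of the array, was 4.47 to 95.2 in AI, 10.3 to 123 in MI and 47.1 to 348 in PI. This sum mostly follows its brightest probe, immunoglobulin lambda-like polypeptide 1, with a log2 median of 7.28 in PI. The next brightest, the B-cell antigen receptor alpha chain-like probe, had 4.17. The 5 enterocyte and 11 pancreatic acinar probes were all higher in AI-MI, with median differences of 0.91 and 6.25. The same held for 3 of 3 hemoglobin probes. The summed signal of the 5 enterocyte probes was 41.2 to 80.6 in AI, 50.3 to 79.6 in MI and 17.6 to 38.7 in PI. These 5 do not stand for all enterocyte genes. The study reports other genes of absorption as higher in PI, among them cubilin, protein amnionless, gastrotropin and the ileal sodium/bile acid cotransporter. Of 3 probes used for intestinal stem cells, prominin-1 (-3.81) and SOX-9 (-1.08) were higher in PI and Musashi homolog 1 (1.29) was higher in AI-MI. With segment means removed, the correlation with the topoisomerase was -0.36 to 0.09 over the B cell probes, 0.10 to 0.40 over the T cell probes, -0.18 to 0.48 over the smooth muscle probes, -0.70 to 0.15 over the enterocyte probes, -0.03 to 0.20 over the pancreatic probes and -0.50 to -0.34 over the hemoglobin probes. That with thymidylate synthase was -0.68 to -0.33 over the T cell probes, -0.68 to -0.23 over the smooth muscle probes, -0.50 to -0.21 over the B cell probes, -0.08 to 0.56 over the enterocyte probes, -0.17 to 0.16 over the pancreatic probes and -0.06 to 0.14 over the hemoglobin probes. Over the 3 stem cell probes the correlation was -0.40 to -0.005 with the topoisomerase and -0.33 to 0.59 with thymidylate synthase. The part of these cell types in the differences between segments was not tested.

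The named probes most like thymidylate synthase over the 23 arrays, among 3489 compared, were WD repeat-containing protein 81 (r = 0.989), 14 kDa apolipoprotein (0.988), ubiquitin carboxyl-terminal hydrolase 3 (0.986), protein spire homolog 2-like (0.985) and acidic mammalian chitinase (0.984). The difference between segments made up most of this likeness, since 93.6% of the variance of thymidylate synthase lay between segments, and 310 of 12774 probes had an r over 0.9. With segment means removed the same 5 probes had an r of 0.75 to 0.85 on these arrays, from which they had been chosen. All 5 had their lowest AI value on AI replicate 2 and their lowest MI value on MI replicate 3, as thymidylate synthase had. The 14 kDa apolipoprotein was at 2.26 on AI replicate 2, with the next lowest AI value at 8.10. The part of these arrays in the likeness was not tested. The chitinase was well above background on only 3 of 8 PI arrays.

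The topoisomerase had fewer close companions, with 3 of 12774 probes at an r over 0.9 and 58.1% of its variance between segments. The 5 most alike were GDH/6PGL endoplasmic bifunctional protein (r = 0.925), VIP36-like protein (0.912), the JNK-interacting protein 3 (0.909), asparagine synthetase (0.889) and vesicle-associated membrane protein 7 (0.888). With segment means removed their r was 0.74 to 0.84 on these arrays, from which they had been chosen. Their AI-MI minus PI differences were between -1.33 and -0.66. None of them belongs to the replication or mitosis lists, where the highest within-segment r with the topoisomerase was 0.66, for Wee1-like protein kinase 1-B. These values cannot be ranked against each other, as the 5 were picked from 3489 named probes and the lists hold 16 and 17 tested ones.

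Within segments the 2 genes showed no relation that passed correction. Pearson's r between them was -0.46 in AI (n = 8, exact permutation p = 0.266; Spearman's rho -0.62, p = 0.115), -0.38 in MI (n = 7, p = 0.402; rho -0.04, p = 0.963) and -0.60 in PI (n = 8, p = 0.114; rho -0.57, p = 0.151) by two-sided exact permutation tests. Leaving out the 2 arrays farthest from the median of thymidylate synthase gave -0.43, 0.77 and -0.55, so the MI value turned on those arrays. Arrays of equal replicate number were also set against each other. For thymidylate synthase r was -0.51 for AI with MI (n = 7, exact permutation p = 0.243; rho -0.71, p = 0.0881), -0.66 for AI with PI (n = 8, exact permutation p = 0.0519; rho -0.62, p = 0.115) and 0.71 for MI with PI (n = 7, exact permutation p = 0.0778; rho 0.79, p = 0.0480). Without the 2 farthest arrays these were -0.84, -0.70 and 0.36. The topoisomerase values of AI and MI correlated at 0.84 (n = 7, exact permutation p = 0.0190; rho 0.86, p = 0.0238), or 0.95 without the 2 farthest arrays, and those of PI at 0.46 with AI (n = 8, exact permutation p = 0.251; rho 0.62, p = 0.115) and 0.27 with MI (n = 7, exact permutation p = 0.555; rho 0.43, p = 0.354). Over the 9 relations computed the adjusted p of the AI with MI relation of the topoisomerase was 0.171 for r and 0.172 for rho. No other relation had a smaller adjusted p, and a slide held too few equal numbers to repeat any of them within it.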

How the data were processed

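Cy3-labelled RNA of each segment sample was run on its own custom one-colour Agilent array. The deposited scanner files hold a processed signal per spot, an intensity that the authors obtained with Agilent Feature Extraction 11.5.1.1 by background subtraction and detrending within the array. They also hold median spot and background intensities. The authors' deposited table gives 1 log2 value per probe and array, scaled per array and centred on the median of each probe, and it differed from the values used here by a median of 0.00245 to 0.0152 per array. Array number limits the precision, and an eighth MI array is not analysed here.

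Spots marked as uneven or as population outliers (1 to 47 per array) were left out, replicate spots were averaged per probe, and each array was scaled by subtracting the log2 of its 75th percentile. A probe was tested if 7 or more of the 23 arrays had it well above background, which left 12894. AI-MI was compared with PI, and AI, MI and PI in pairs, with limma 3.58.1 in R 4.3.3 (lmFit, eBayes, two-sided), each on the arrays of the segments compared, with Benjamini-Hochberg adjustment over all tested probes and calls at an adjusted p under 0.05. The fit was tested on simulated data. Tables were made with Python 3.11.15, numpy 2.4.6, pandas 2.3.3 and scipy 1.17.1, and plots with matplotlib 3.10.9.

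Names come from the study's list of 3652 named probes. The members and gene lists were chosen with earlier results of these data known. Values are given for both members, for topoisomerase 2-beta, for up to 4 probes per list and direction with the largest AI-MI minus PI difference, and for the 5 named probes with the highest r to each member. Other probes were named beside them after their values were seen. These were Wee1-like protein kinase 2, aminomethyltransferase, mitochondrial serine hydroxymethyltransferase, mitochondrial dUTPase and nucleoside diphosphate kinases 3, 7 and B. They also included uridine phosphorylase 1, the probe annotated as sodium/nucleoside cotransporter without a number, and the probes of the marker lists. Slides were read from the scanner headers (AI, MI and PI had 3, 3 and 2 arrays on the first slide, 3, 2 and 3 on the next, and 2, 2 and 3 on the last). Alternatives were quantile normalization, normexp correction with an offset of 50 (on median signals, since mean signals are not used here), other filters, a floor on dim signals, the authors' table, the methods' test, a trend in eBayes, a joint fit, replicate and slide blocks, each slide alone and each array left out.

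The sources do not tell if samples sharing a replicate number came from 1 fish. Over probes, array deviations from the segment mean correlated at 0.189 to 0.590 in all 8 AI and PI pairs of equal number, and over 0.1 in 6 of 7 pairs of AI with MI and 6 of 7 of MI with PI. The median was 0.351 for equal and -0.047 for unlike numbers of AI with PI. It was 0.326 and -0.060 for AI with MI, and 0.435 and -0.039 for MI with PI. Equal numbers may therefore mark pairs, most evenly for AI with PI, but the main fits use no pairing.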

Additional observations from a re-analysis of the deposited data

Results flagged for a closer look

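The thymidylate synthase signal of AI replicate 2, -2.72 on the log2 scale, stood apart from the other 7 AI arrays, which lay between -1.05 and 0.22. The gap to the nearest array was 0.570 of the whole range of the 8 arrays, above the limit of 0.526 for 8 samples. Chance alone passes this limit in about 1 in 20 groups, and 6 groups were examined. Leaving it out moved thymidylate synthase in AI-MI minus PI to 5.37 and kept it called.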

How the results depend on the processing

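Thymidylate synthase kept its direction in AI-MI minus PI, AI minus PI and MI minus PI under all alternatives run, and it lost its call once, in AI minus PI on slide 1 alone (5.12, adjusted p = 0.0508). DNA topoisomerase 2-alpha kept its direction against PI under all alternatives run, but not its call within every single slide, which holds few arrays. On slide 2 it kept the call in AI-MI minus PI (-0.81) and in AI minus PI. Where the call was lost, AI-MI minus PI was -0.44 on slide 1 and -0.70 on slide 3, and AI minus PI -0.41 and -0.48. MI minus PI lost it on slides 1, 2 and 3, at -0.46, -0.91 and -0.92. Normexp correction also took the call from its MI minus PI difference (-0.22) and turned AI minus MI, not called in any setting, to -0.046. The probes called on slides 1, 2 and 3 numbered 1410, 3508 and 2033 for AI-MI minus PI, 482, 3005 and 1531 for AI minus PI, and 1268, 1404 and 261 for MI minus PI. Normexp correction called 3740 probes towards AI-MI and 2129 towards PI, against 2772 and 2912 in the values reported. Between AI and MI, a joint fit of the segments called 49 probes, and fits with 1 array left out called 0 to 588, with 588 without AI replicate 2 and 40 without MI replicate 7. With 1 array left out, AI-MI minus PI was 5.16 to 5.37 for thymidylate synthase and -0.72 to -0.62 for the topoisomerase, and no call of either gene against PI was lost. With the replicate number as a block, AI-MI minus PI was 5.28 (adjusted p = 2.2e-09) and -0.67 (adjusted p = 2.5e-05), and pairing changed no call of either gene. The correlation of the 2 genes within MI turned to 0.77 without the 2 farthest arrays. The cause of these changes was not tested. Signal over background limits thymidylate synthase in PI, where every array was within 3.98 times its limit, so the size of its fold-change depends on how dim spots are treated (5.26, or 2.82 with normexp).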
